A study of Mus musculus with 8 samples.

Results

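The 10 genes described here are p53 itself (Trp53), its inhibitor Mdm2 and 8 direct p53 target genes outside the BCL2 family, namely Ccng1, Trp53inp1, Zmat3, Phlda3, Btg2, Aen, Perp and Fas. They are named by symbol in a rule that uses no measured value, although the rule was written with earlier results of these data known, and all 10 were found among the 24413 gene symbols counted. They were measured in 8 libraries of mouse plasmablasts, the dividing cells that activated B cells become on the way to antibody-secreting plasma cells. The 4 Jagn1 knockout libraries came from mice with the genotype Jagn1fl/fl Mb1Cre+, and the 4 control libraries from Jagn1fl/fl mice for which no Cre is listed. The product of Jagn1 sits in the membrane of the endoplasmic reticulum (ER) and serves the secretory pathway, and Mb1-Cre is driven by the B cell gene Cd79a. All mice were C57BL/6J, and the sources used here state no ages. In both groups B220+ spleen cells were kept for 4 days in 25 µg/ml lipopolysaccharide (LPS), which makes B cells divide and differentiate, before CD22-CD138+ cells were sorted. The series text gives 4 mice per genotype, and since no Cre is listed for the controls, effects of Cre and of Jagn1 loss cannot be told apart.

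p53 is a transcription factor that is made continuously and destroyed as fast, because MDM2, an enzyme that tags proteins for degradation, binds it. DNA damage and other stresses release p53 from MDM2, and p53 then switches on genes for cell cycle arrest, repair and cell death, together with Mdm2 itself, which closes a negative feedback loop. Trp53 transcript levels therefore say little about p53 activity, which is usually read from its target genes. ER stress and amino acid shortage act through another transcription factor, ATF4, and its partner CHOP, and some genes, such as Bbc3, Ddit4, Sesn2 and Gadd45a, can be switched on by either route. Genes that answer mainly to p53, such as Mdm2, Ccng1 and Zmat3, are the ones used to tell the routes apart.

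p53 binds a pair of decamer half-sites. Upstream stretches of 200 bases are shown for Phlda3, the gene of the 10 with the largest fitted change, for Mdm2 and Ccng1, 2 widely used readouts of p53, and for Cdkn1a, a further p53 target that rose. They run 5′ to 3′ on the gene's strand and end at the base before the RefSeq transcript start (build GRCm38.p6), with matches to the p53 half-site in capitals. The stretches are chr1:135765885-135766084 on the plus strand for Phlda3, chr10:117710759-117710958 on the minus strand for Mdm2, chr11:40755287-40755486 on the minus strand for Ccng1 and chr17:29090779-29090978 on the plus strand for Cdkn1a.
Phlda3: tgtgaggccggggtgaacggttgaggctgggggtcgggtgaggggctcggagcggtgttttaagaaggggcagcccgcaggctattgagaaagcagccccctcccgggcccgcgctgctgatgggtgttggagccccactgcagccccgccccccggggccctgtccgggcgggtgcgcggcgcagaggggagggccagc
Mdm2: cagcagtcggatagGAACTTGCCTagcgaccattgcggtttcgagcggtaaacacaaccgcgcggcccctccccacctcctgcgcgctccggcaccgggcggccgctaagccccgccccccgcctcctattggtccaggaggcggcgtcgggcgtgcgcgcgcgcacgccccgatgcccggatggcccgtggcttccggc
Ccng1: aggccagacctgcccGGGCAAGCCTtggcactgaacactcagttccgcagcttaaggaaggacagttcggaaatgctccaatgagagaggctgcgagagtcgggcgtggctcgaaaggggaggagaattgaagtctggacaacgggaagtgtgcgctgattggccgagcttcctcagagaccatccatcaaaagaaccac
Cdkn1a: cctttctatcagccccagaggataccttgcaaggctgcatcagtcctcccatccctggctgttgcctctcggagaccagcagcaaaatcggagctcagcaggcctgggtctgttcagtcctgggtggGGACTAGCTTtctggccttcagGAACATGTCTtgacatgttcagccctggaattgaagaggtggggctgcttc

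The half-site, whose pattern reads the same on both strands, was searched for in RefSeq windows running from 250 bases before to 50 after each start. A window was at hand for 7 of the 10 genes, and 4 of the 7 (Trp53, Mdm2, Ccng1 and Aen) held a half-site, as did 9.55% of all 27025 genes with a window. None of the 7 held a pair of half-sites with a spacer of up to 13 bases. Of 2 RefSeq starts of Cdkn1a, the upstream one, shown above, had such a pair, beginning 73 bases before it, and the window of the other had no half-site. Directly after the half-site GAACATGTCT of that pair, the bases tgacatgttc miss the pattern at 1 letter, so they are neither marked nor counted. A pair in any window was found for 0.0740% of all genes. The ATF4 and C/EBP response element TGATGNAA, searched on both strands, was in none of the 7 and in 10 of 26 ATF4 target genes with a window, against 4.51% of all genes. These are letter matches in 1 window per start and not measured sites. The known p53 sites of Mdm2, for example, lie in its first intron, outside the window.

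The libraries held 5882912 to 10066661 counts, with means of 7673508 ± 452912 in the Jagn1 knockout and 7628210 ± 1754573 in the control (SD, n = 4 each, two-sided exact permutation test, p = 1). Levels are given in CPM, each library's counts brought to a common total with TMM factors. A library with no count for a gene allows up to 0.292 to 0.483 CPM on this scale at the floor of 3 counts, which covers counting error only. Jagn1 gave 1 to 2 counts in each knockout library, against 16 to 99 in the control libraries. Control replicates 1 and 4 stood apart, with root mean square deviations from their group's mean log2 CPM of 0.594 and 0.581, where the remaining libraries had 0.324 to 0.432. The 6 plasmablast markers summed to 20850 to 26851 CPM in the knockout and 26532 to 33657 CPM in the control. Of the 6, Sdc1 and Jchain fell and 0 rose. Cd79a, whose locus drives the Cre, averaged 147 ± 23.5 CPM in the knockout and 304 ± 77.5 CPM in the control (SD, n = 4 each; edgeR adjusted p = 0.00313). The 5 markers listed for residual B cells summed to 368 to 485 CPM in the knockout and 348 to 493 CPM in the control. Most of that was Ms4a1, at 317 to 435 CPM in the knockout and 316 to 441 CPM in the control. The 7 T cell markers summed to 6.30 to 8.28 CPM in the knockout and 9.04 to 15.8 CPM in the control, and the 4 dendritic cell markers to 4.88 to 7.08 CPM in the knockout and 1.26 to 4.45 CPM in the control. The 5 myeloid markers summed to 1.47 to 3.45 CPM in the knockout and 2.36 to 6.31 CPM in the control, with Lyz2 at 0 in every library. The 3 natural killer cell markers summed to at most 1.96 CPM in the knockout and 2.92 CPM in the control, with Ncr1 at 0. The 4 red blood cell markers summed to at most 0.240 CPM in the knockout and 0.139 CPM in the control, and the granulocyte genes S100a8, S100a9 and Elane had no count. The part of these differences in the results was not tested, and in sorted bulk samples fewer cells of a type and less RNA per cell cannot be told apart.

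None of the 10 genes changed at an adjusted p under 0.05 in edgeR's quasi-likelihood test. Of the 10, 9 passed the filter on low counts, with 0 higher and 0 lower in the knockout. Over the 9904 genes tested, 5.74% were called, with 2.54% higher and 3.19% lower in the knockout. At an unadjusted p under 0.05 there were 3 (Phlda3, Ccng1 and Zmat3), all higher in the knockout. Over the 9904 genes, 822 were higher and 963 lower at that level, 18% in either direction. DESeq2 called 1 of them (Phlda3), higher in the knockout, and 858 of the 9904 genes in either direction. With sample weights, limma-voom called 2 (Phlda3 and Ccng1), both higher in the knockout, and 1070 of the 9904 genes in either direction. Fitted changes were above 0 for 6 of the 9 genes, against 48.7% of all genes, with a median of 0.17 on the log2 scale against -0.01 over all genes tested. The groups did not overlap for 2 genes (Phlda3 and Zmat3), both higher in the knockout, and for 0 genes lower in it. Over all genes tested the shares were 6.45% higher, 6.64% lower and 13.1% in either direction.

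**Figure D1:**
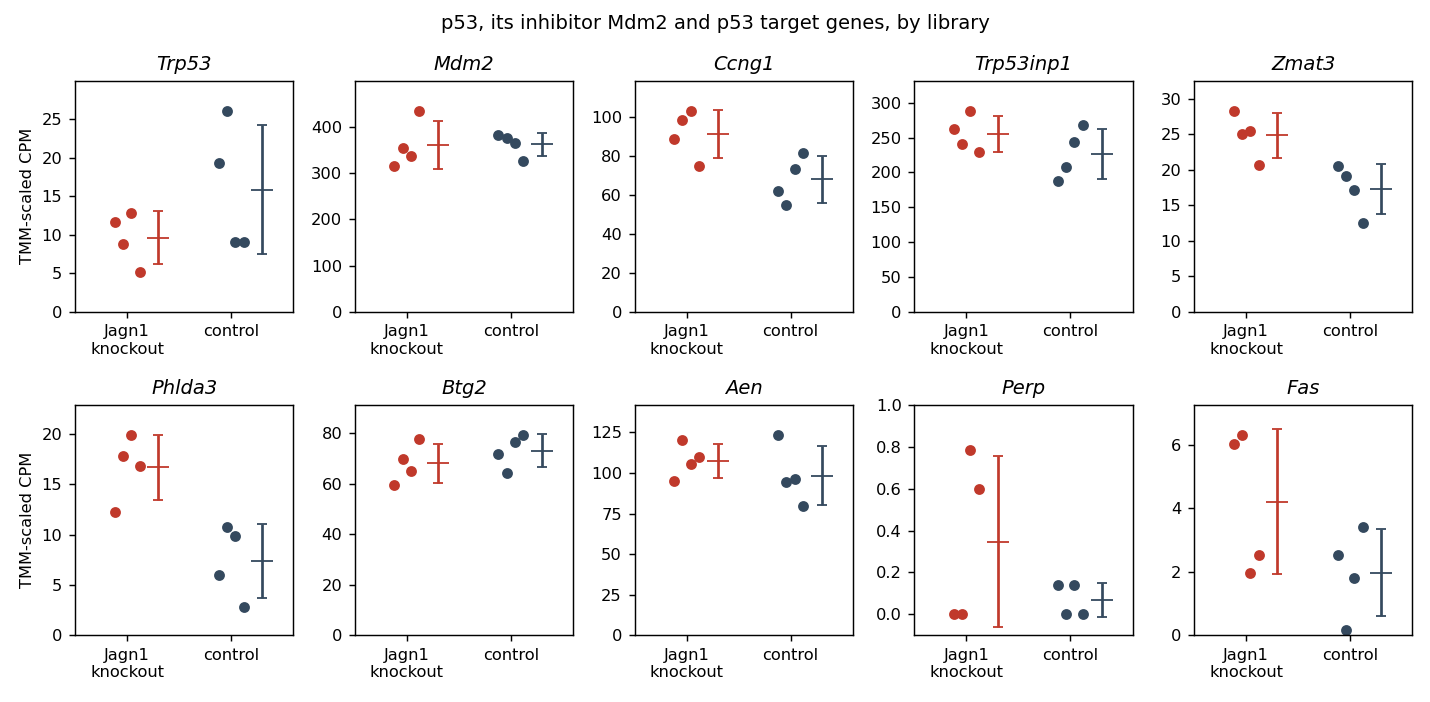
Levels of the 10 genes in TMM-scaled CPM (vertical axes, linear, a separate scale for each gene) in 4 Jagn1 knockout (left) and 4 control libraries (right). Points are libraries in replicate order, bars the mean and SD. Phlda3 and Zmat3 are the 2 genes whose groups do not overlap.

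Trp53, which encodes p53, was low in all libraries. It stood at 11.7, 8.76, 12.8 and 5.16 CPM in knockout replicates 1 to 4, and at 19.4, 26.1, 9.04 and 9.04 CPM in control replicates 1 to 4. The groups overlapped, and control replicates 1 and 2 were above every other library. The log2 fold change was -0.72 ± 0.37 (SE; 95% interval -1.51 to 0.08, edgeR adjusted p = 0.335), and -0.38 without control replicate 2. The counts behind these values were 43 to 162 per library. The gene spans bases 69580359 to 69591873 of chromosome 11, plus strand (build GRCm38, GENCODE M21). A processed pseudogene, Trp53-ps, is annotated on chromosome 17, so the assignment of Trp53 reads is uncertain.

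Mdm2, the inhibitor and a p53 target in its own right, had the smallest fitted change of the 9 genes. It stood at 315, 355, 336 and 434 CPM in the knockout libraries and at 382, 375, 366 and 327 CPM in the control libraries. Knockout replicate 4 was the highest of all 8 and knockout replicate 1 the lowest. The log2 fold change was -0.01 ± 0.14 (adjusted p = 0.988), and its 95% interval ran from 0.81-fold to 1.22-fold. Mdm2 had 2332 to 3616 counts per library, the deepest coverage among the 10 genes. The gene spans bases 117688875 to 117710758 of chromosome 10, minus strand.

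Neither Btg2 nor Ccng1 passed the threshold in edgeR. Btg2, an anti-proliferative gene that B cell activation also changes, stood at 59.5, 69.9, 65.2 and 77.9 CPM in the knockout and at 71.8, 64.5, 76.8 and 79.4 CPM in the control, with overlapping groups. Its log2 fold change was -0.10 ± 0.15 (95% interval -0.43 to 0.22, adjusted p = 0.800). Ccng1 encodes cyclin G1, which helps a phosphatase act on MDM2. Its levels were 88.7, 98.2, 103 and 74.7 CPM in the knockout and 62.1, 54.5, 73.4 and 81.3 CPM in the control. Control replicate 4 was above knockout replicate 4, so the groups overlapped. The log2 fold change of Ccng1 was 0.42 ± 0.17 (95% interval 0.06 to 0.78, adjusted p = 0.185 with edgeR and 0.0358 with limma-voom).

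Trp53inp1, which encodes a stress protein that acts with p53 and in autophagy, stood at 262, 241, 288 and 230 CPM in the knockout and at 187, 208, 244 and 268 CPM in the control. The groups overlapped, with control replicate 4 above 3 knockout libraries. The log2 fold change was 0.17 ± 0.15 (95% interval -0.14 to 0.49, adjusted p = 0.609). Zmat3 encodes an RNA-binding zinc finger protein that p53 uses to regulate splicing. It stood at 28.3, 25.1, 25.5 and 20.7 CPM in the knockout and at 20.6, 19.1, 17.1 and 12.5 CPM in the control. The lowest knockout library lay just above the highest control library. Its log2 fold change was 0.52 ± 0.21 (95% interval 0.07 to 0.98, adjusted p = 0.198).

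Phlda3, which encodes a lipid-binding protein that restrains the survival kinase AKT, came nearest to the threshold. It had 12.2, 17.8, 19.9 and 16.8 CPM in knockout replicates 1 to 4 (91 to 152 counts) and 6.03, 10.8, 9.87 and 2.82 CPM in control replicates 1 to 4 (29 to 71 counts). All 4 knockout libraries were above all 4 control libraries, an arrangement that 6.45% of all genes tested showed in this direction. The log2 fold change was 1.19 ± 0.35 (95% interval 0.44 to 1.94, adjusted p = 0.0627). It was 0.90 without control replicate 4, the lowest library, and 0.69 (adjusted p = 0.128) without control replicates 1 and 4. The adjusted p was 0.0194 with DESeq2, 0.0212 with limma-voom and 0.0257 in edgeR with no filter on low counts. The gene spans bases 135766119 to 135769136 of chromosome 1, plus strand.

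The targets linked to cell death did not pass either. Aen, a nuclease of apoptotic cells, stood at 95.1, 120.2, 105 and 110 CPM in the knockout and at 124, 94.6, 96.2 and 79.6 CPM in the control, with overlapping groups and a log2 fold change of 0.13 ± 0.16 (adjusted p = 0.752). Fas encodes the death receptor CD95, which activated B cells carry and which NF-kB signals also raise. It stood at 6.03, 6.32, 1.96 and 2.52 CPM in the knockout and at 2.52, 0.161, 1.81 and 3.40 CPM in the control. Knockout replicates 1 and 2 were highest and control replicate 2, with 1 count, was lowest. The log2 fold change of Fas was 1.05 ± 0.64 (95% interval -0.31 to 2.41, adjusted p = 0.429). It was 0.69 without control replicate 2, and 2.03 (adjusted p = 0.0957) without control replicates 1 and 4. Perp, which encodes a membrane protein of cell junctions and apoptosis, gave 0, 0, 6 and 5 counts in the knockout and 1, 0, 1 and 0 in the control. It did not pass the filter, and no fold is given.

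The 10 genes did not share 1 pattern over the libraries. Among the 9 tested, knockout replicate 3 held the highest level of 3 and control replicate 4 the lowest of 3. The mean over the 7 tested targets other than Mdm2 of each gene's deviation from its own mean was 0.27, 0.42, 0.23 and 0.13 log2 units in knockout replicates 1 to 4, and -0.15, -0.52, -0.10 and -0.28 in control replicates 1 to 4. The groups did not overlap. Without Phlda3 and Fas, the 2 genes with the largest fitted changes, the mean over the other 5 targets was 0.09, 0.17, 0.18 and 0.03 in knockout replicates 1 to 4 and -0.07, -0.21, -0.06 and -0.13 in control replicates 1 to 4. These means are a description of genes chosen with earlier results known, and no test was made on them.

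**Figure D2:**
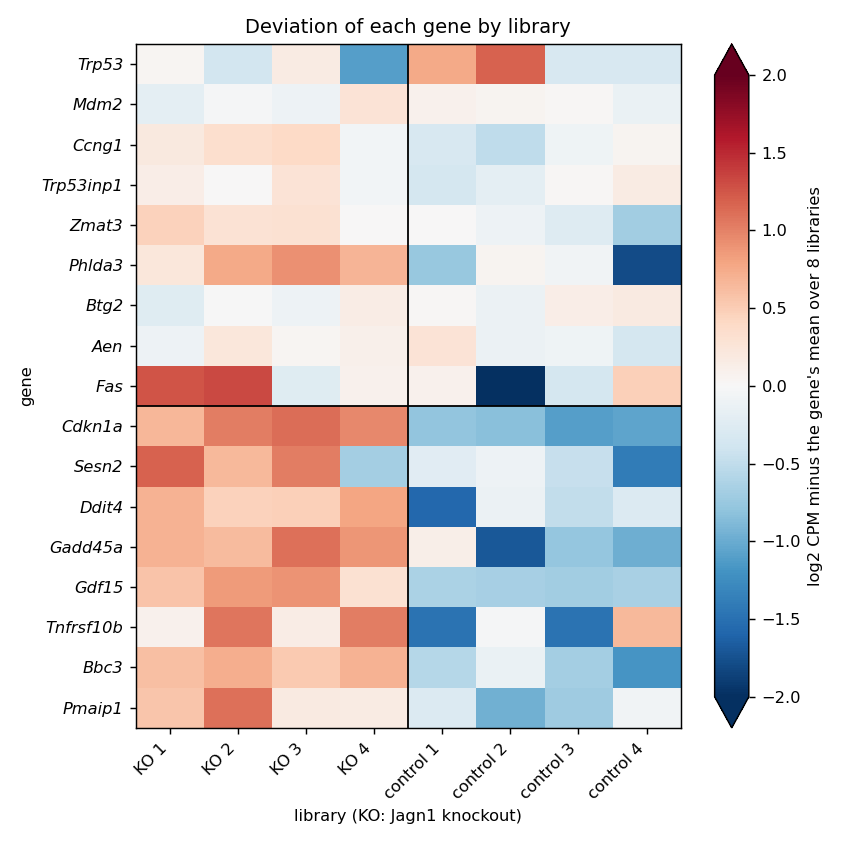
Log2 CPM of each gene minus its mean over the 8 libraries (color), with genes in rows and libraries in columns, knockout left of the vertical line. Above the horizontal line are the 9 tested p53 pathway genes. Phlda3 and Zmat3 lie above their own means in all 4 knockout libraries, and the other pathway genes show mixed signs there. In the control libraries every pathway gene shows mixed signs. Below the horizontal line are Cdkn1a and 7 genes that both p53 and ATF4 or CHOP can raise.

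Other p53 targets were read from a list of 35 genes outside the BCL2 family, of which 25 were tested. Of these, 4 rose (Cdkn1a, Ddit4, Gdf15 and Gadd45a), 1 fell (Pml) and the median log2 fold change was -0.01. Over all 9904 genes tested, 2.54% rose and 3.19% fell. Cdkn1a encodes p21, the inhibitor of cyclin-dependent kinases through which p53 stops the cell cycle. It stood at 33.5, 42.9, 46.0 and 41.3 CPM in the knockout and at 12.1, 11.6, 9.60 and 10.0 CPM in the control, without overlap. Its log2 fold change of 1.92 ± 0.20 (adjusted p = 4.35e-05) stayed between 1.86 and 2.01 under all 18 alternatives. Reads of Cdkn1a and Gadd45a may include transcripts of annotated genes on the opposite strand, with which they share 273 and 337 exonic bases, since no source used here states whether strand was used in counting.

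Of those 4 genes, 3 are also listed as raised by ATF4 or CHOP. Of 7 genes listed as reached by both routes, 4 rose (Bbc3, Ddit4, Gdf15 and Gadd45a) and none fell, with a median of 1.20. The shares of all genes tested that rose and fell were 2.54% and 3.19%. Bbc3, which encodes the death-promoting BCL2 family protein PUMA, stood at 371, 402, 351 and 394 CPM in the knockout and at 164, 223, 151 and 107 CPM in the control. Ddit4, an inhibitor of mTORC1, stood at 344, 295, 296 and 370 CPM in the knockout and at 72.0, 197, 152 and 177 CPM in the control. The groups did not overlap for either gene. Gdf15, a secreted stress cytokine, and Gadd45a, a growth arrest gene, had log2 fold changes of 1.39 ± 0.29 and 1.57 ± 0.36 (adjusted p = 0.00975 and 0.0155). The call of Gdf15 was lost without knockout replicate 2 or 3 (adjusted p up to 0.0540), and that of Gadd45a without knockout replicate 3 or 4 or control replicate 3 (up to 0.0643). Pmaip1, Sesn2 and Tnfrsf10b had log2 fold changes of 1.02, 1.20 and 1.04 and did not pass in edgeR (adjusted p = 0.0698, 0.0763 and 0.453). Pmaip1 was called under 5 of 18 alternatives, Sesn2 under 4 of 18 and Tnfrsf10b under 0 of 17.

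**Figure D3:**
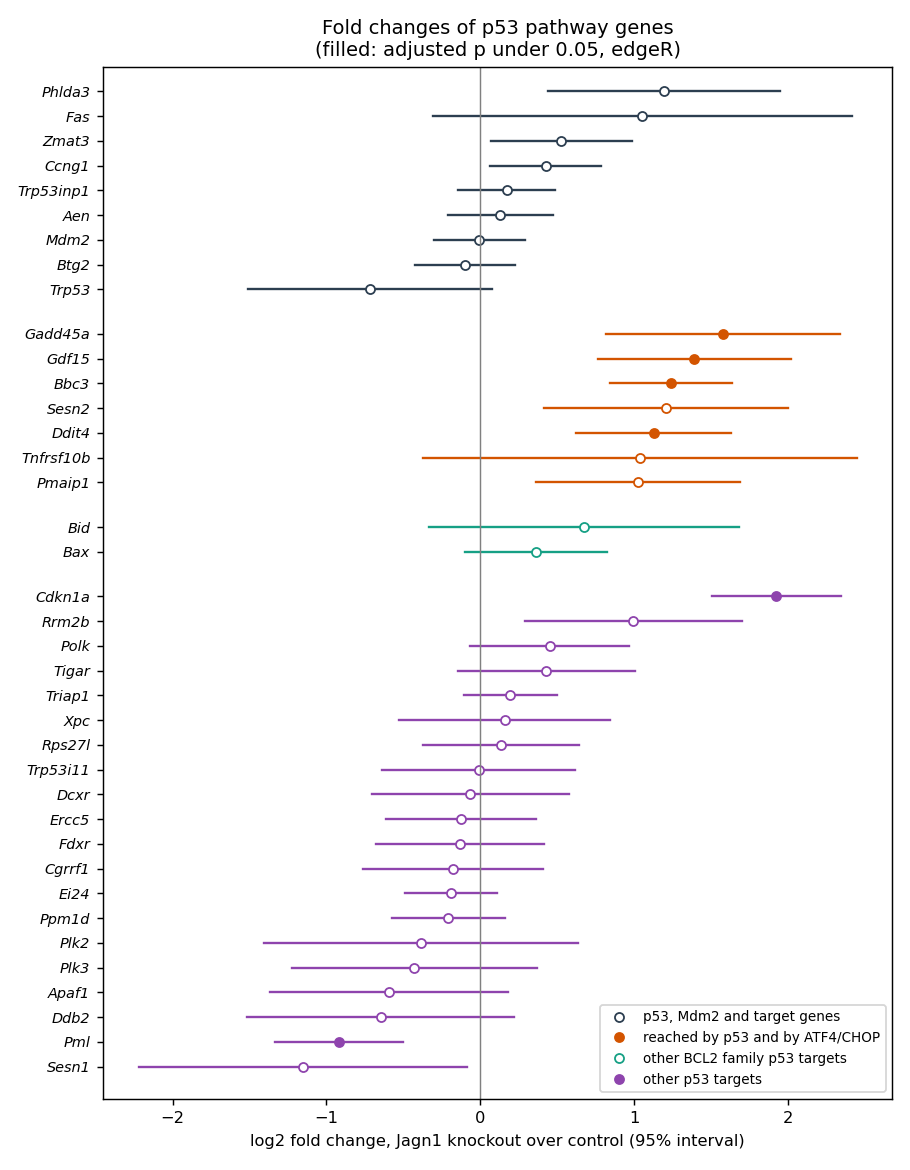
Log2 fold changes of Jagn1 knockout over control (horizontal axis) with 95% intervals for 9 p53 pathway genes, 7 genes reached by p53 and by ATF4 or CHOP, the other BCL2 family targets and 20 further p53 targets. Filled points passed an adjusted p of 0.05 in edgeR. No gene of the top group is filled, and Cdkn1a, at 1.92, is the highest of all.

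Of the other p53 targets, 20 tested genes are not listed as reached by ATF4 or CHOP. Among these 20, Cdkn1a was the 1 gene that rose and Pml the 1 that fell, against 2.54% and 3.19% of all genes tested. The median of the 20 was -0.13. At an unadjusted p under 0.05 in edgeR, 2 were higher and 2 lower, against 18% of all genes in either direction. The groups did not overlap for 4 of the 20 higher in the knockout and 1 lower, against 6.45% and 6.64% of all genes. Pml, which organises nuclear bodies and is also an interferon-induced gene, averaged 42.6 ± 2.41 CPM in the knockout and 80.6 ± 20.9 CPM in the control (SD, n = 4 each; log2 fold change -0.92 ± 0.19, adjusted p = 0.00950). Its call was lost without knockout replicate 2 (adjusted p = 0.0508). The mean deviation over these 20 genes was -0.14, 0.00, 0.10 and 0.04 log2 units in knockout replicates 1 to 4 and -0.07, -0.05, 0.06 and 0.05 in control replicates 1 to 4, so the groups overlapped.

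Genes that control p53 gave 1 call among 29 tested, against 5.74% of all genes tested. Cdkn2a, whose ARF product holds MDM2 away from p53, stood at 73.2, 84.3, 67.6 and 61.0 CPM in the knockout and at 23.3, 36.5, 60.6 and 35.6 CPM in the control, with knockout replicate 4 just above control replicate 3. Its log2 fold change was 0.87 ± 0.24 (adjusted p = 0.0419). The call was lost under 6 of 18 alternatives, namely without any 1 knockout replicate, without control replicate 2, or without control replicates 1 and 4, with an adjusted p of up to 0.162. ARF and the cell cycle inhibitor p16 end in the same exons of Cdkn2a, so a 3′ tag does not tell them apart. Mdm4, the partner of MDM2, and the damage kinase gene Atm, both chosen after their values were seen, had log2 fold changes of -0.18 ± 0.19 and -0.04 ± 0.18 (adjusted p = 0.678 and 0.944). Of the p53 relatives, Trp63 had no count in any library, and Trp73 had a log2 fold change of -0.95 ± 0.43 (adjusted p = 0.260).

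p53 also lowers cell cycle genes, through p21 and the DREAM repressor complex, which proliferation itself affects. All 21 genes of that list were tested. Of them, 10 fell and 0 rose, against 3.19% and 2.54% of all genes tested. Their median was -0.66 on the log2 scale. Plk1, a mitotic kinase gene, and Top2a, a DNA topoisomerase gene, had log2 fold changes of -0.93 ± 0.17 and -0.66 ± 0.13 (adjusted p = 0.00419 and 0.00747). Both kept their calls under all 18 alternatives, while each of the rest of the 10 was called under 10 to 16 of them. For comparison, 25 of 30 tested ATF4 target genes rose and none fell, with a median of 1.37, among them Trib3, a pseudokinase gene that CHOP and ATF4 induce, with a log2 fold change of 2.66 ± 0.30 (adjusted p = 0.000121).

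**Figure D4:**
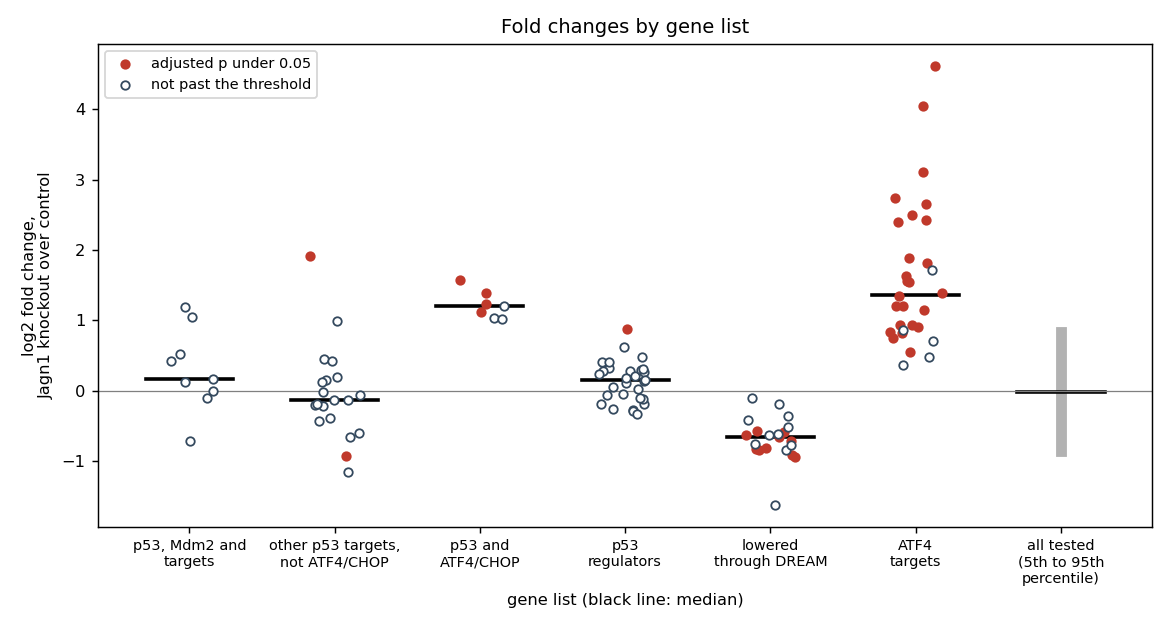
Log2 fold changes of Jagn1 knockout over control (vertical axis) for the tested genes of 6 lists, with the median as a black line and filled points past an adjusted p of 0.05. The grey bar spans the 5th to 95th percentile of all tested genes. The p53, Mdm2 and target genes have a median of 0.17 and no filled point, and the ATF4 targets a median of 1.37 with 25 filled points.

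**Figure D5:**
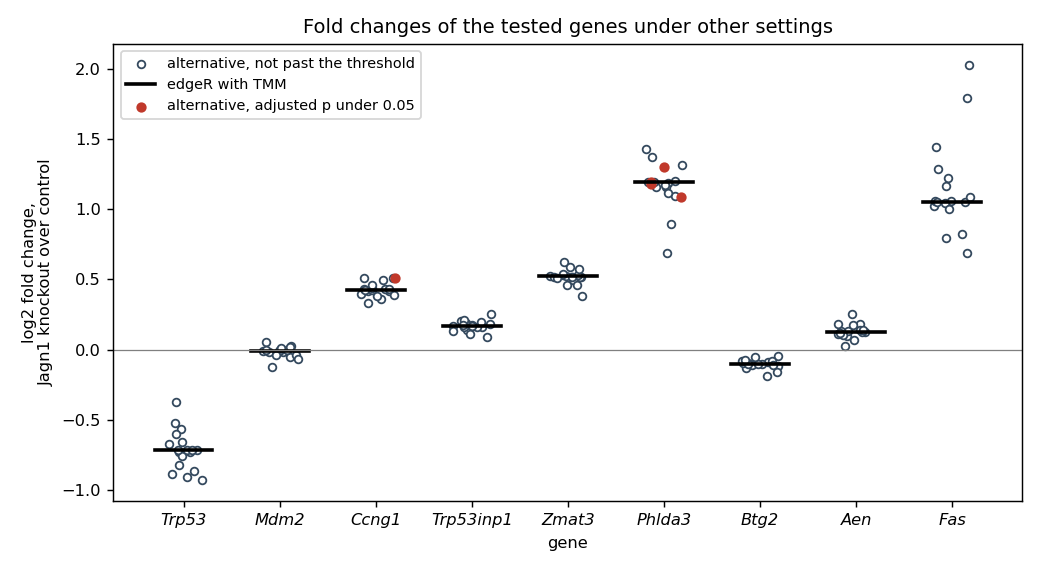
Log2 fold changes of Jagn1 knockout over control (vertical axis) for the 9 tested genes under other settings (points) and with edgeR and TMM factors (black line). Filled points passed an adjusted p of 0.05, which Phlda3 did under 4 settings and Ccng1 under 1.

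Under other tools, scalings, filters and left-out libraries, as the plot of fold changes under other settings shows, the signs of 8 of the 9 genes were the same throughout. Mdm2 lay between -0.12 and 0.05 on the log2 scale, and no setting called it. Trp53inp1, Zmat3, Btg2, Aen, Trp53 and Fas were not called under any of them.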

How the data were processed

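Per the labels' protocols, RNA from sorted cells was sequenced from transcript 3′ ends (QuantSeq FWD kit), so values were not divided by gene length. The deposited files hold raw read counts per gene symbol. HTSeq 0.6.1, TopHat2 2.1.1, BWA 0.7.12, SAMtools 1.3.1 and build mm10 are named, without roles, in the submitters' processing notes. Neither the annotation nor the strand setting is given in the sources used here. No molecular identifiers are stated, so counts may include PCR copies.

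Groups follow the sample titles. Genes were filtered with filterByExpr (minimum count 10, minimum total 15) and tested with edgeR 4.0.16 (R 4.3.3): TMM factors, robust quasi-likelihood F-test, group as the only term, two-sided, Benjamini-Hochberg adjustment over all 9904 genes tested, threshold 0.05. Standard errors were taken as the size of the log2 fold change over the root of F, and log2 CPM uses a prior count of 2. Alternatives were DESeq2 1.42.0, limma-voom 3.58.1, other scalings and filters, a replicate block and left-out libraries. The steps were checked on simulated counts. No pair of libraries in a group agreed within sampling noise (chi-square per degree of freedom 6.60 to 94.2). The genes and lists were chosen with earlier results of these data known. The naming rule covers Jagn1 and Cd79a, the 10 genes, the p53 relatives and the 7 genes reached by both routes. It also covers up to 6 called genes per direction of each list by smallest p. Of those from the DREAM and ATF4 lists, only Plk1, Top2a and Trib3 are described in the Results. Mdm4, Atm and the markers were named besides.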

Additional observations from a re-analysis of the deposited data

Results flagged for a closer look

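Of 70 groups of 4 libraries checked for the 35 genes covered by the naming rule, 4 held a library far from the other 3, about the 5% that chance gives. Jagn1 was at 0.268 CPM in knockout replicate 1, with the next library at 0.144 CPM, a difference of 1 count. Nupr1, an ATF4 target gene, was at 105 CPM in knockout replicate 2, with the next library at 73.1 CPM. Aurka, a mitotic kinase gene, was at 75.6 CPM in control replicate 4, with the next at 60.9 CPM. Mcm5, a replicative helicase gene, was at 107 CPM in control replicate 3, with the next at 130.5 CPM. None of the 10 p53 pathway genes had such a library.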

How the results depend on the processing

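Over 18 alternatives, 156 of 161 values of the 9 tested genes kept their side of the threshold, and in 5 a gene higher in the knockout passed it. The count of the 10 genes called higher was 1 with DESeq2, 2 with limma-voom, 1 with no filter on low counts and 1 with a replicate block, and 0 without any 1 library; the count called lower was 0 throughout. Over all genes, the 568 calls were 858 with DESeq2, 1070 with limma-voom, 917 without control replicates 1 and 4, and 274 (knockout replicate 2 left out) to 886 (control replicate 4 left out) without any 1 library. The 4 other p53 targets called higher were 2 to 5 without any 1 library (2 without knockout replicate 3), and the 1 called lower was 0 to 2 (0 when knockout replicate 2 was left out, 2 when control replicate 4 was) and 2 without control replicates 1 and 4. The cause of these shifts was not tested. The replicate numbers did not pair the libraries: same-numbered libraries had correlations of deviations of -0.00342 to 0.0662, and not every library correlated best with its own number. With the block, 509 genes were called, and of the 10 genes Phlda3 was (adjusted p = 0.0361). Depth limits Trp53, Phlda3, Fas and Perp most, whose counts were the lowest of the 10.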
